A study of Sebastes mystinus with 44 samples.

Results

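White muscle transcripts of the blue rockfish (Sebastes mystinus) that were lower after 24 h of exposure than after both 12 h and 2 weeks are described here. They are 150 of the 239549 features of a transcriptome assembled without a genome, and the features carry assembly identifiers and no gene names. The 150 members were chosen by their measured levels. Levels are given as CPM, the count of a feature scaled to a common library total, and were taken as log2(CPM + 1) and averaged at each time over the means of 4 exposures. Of the 8371 features with a mean level from 5 to 500 CPM, 176 were at least 0.5 log2 units higher at 12 h than at 24 h and also at 2 weeks than at 24 h. The 150 members are those in which the smaller of these differences was largest. The same rule turned round, with 24 h as the high point, was met by 484 features.

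Juvenile fish were held in flowing seawater that was acidified with carbon dioxide (named pH in the labels), stripped of oxygen with nitrogen (DO), treated as cross, or left untreated (control). The labels leave cross undefined; it is known from the study to be the combined exposure. At 12 h there were 4 pH, 4 DO, 4 cross and 4 control fish. At 24 h there were 3 pH, 3 DO, 4 cross and 4 control fish. At 2 weeks there were 2 pH, 4 DO, 4 cross and 4 control fish. Each of the 44 libraries came from a different fish, so no fish was followed through time. The control fish shared the aquarium setting and the time in it with the exposed fish. The sample records give a temperature of 11.4 to 12.3 °C for all fish. They also give 8 aquaria with 10 fish each, but the aquarium of each fish is not given in the sources used here. With fewer aquaria than fish, some fish shared one. The exposures were treatments of the water. If each aquarium held 1 exposure, 8 were too few for each 12 h fish to have its own, so fish shared within a group. An aquarium then cannot be told apart from its exposure, while p-values treat fish as independent. The numbers of the cross fish form a run of their own at every time, and any difference in their origin or handling cannot be told apart from the exposure. Each time was deposited as a table of its own, and any handling, hour of day or table that went with a sampling time cannot be told apart from that time.

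Fish white muscle is a fast-contracting tissue that makes up most of the body mass and powers bursts of swimming, largely on anaerobic glycolysis. Seawater rich in carbon dioxide shifts the acid-base balance of the blood and tissues, which fish restore mainly by ion exchange at the gills. Low oxygen limits aerobic energy production, and many fish respond with changes in glycolytic and hypoxia-inducible genes. Without gene names the members could not be assigned to any of these processes, and the white muscle label could not be checked against its marker genes.

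Library totals ran from 9884996 to 36692935 counts (median 15331531), so that 3 counts, taken as the lowest level resolved, were worth 0.0818 to 0.303 CPM. That limit covers counting error only. Only 5 members had any library at 0, and none had more than 3 such libraries. The 100 most abundant features took 46.2% to 63.4% of the counts in 12 h fish (median 56.2%). In 24 h fish they took 42.1% to 64.5% (median 55.3%), and in 2-week fish 49.9% to 64.9% (median 56.7%). That share thus varied far more between fish of 1 time than between times. Some libraries stood apart from the rest of their group by the chi-square of their counts per feature. Control fish Mys25 of 24 h differed from the other 3 controls of that time by 40.1 to 45.1, where those 3 differed among themselves by 8.63 to 10.9. DO fish Mys35 of 24 h differed from the other DO fish by 39.0 to 48.8 (10.7 between those), cross fish Mys7064 of 12 h by 48.2 to 67.1 (17.3 to 43.1) and DO fish Mys57 of 2 weeks by 23.3 to 29.7 (9.04 to 10.2). By smaller gaps the same held for control fish Mys15 of 12 h, cross fish Mys7068 and pH fish Mys30 of 24 h, and control fish Mys50 of 2 weeks. What set these libraries apart was not tested.

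In the typical member the level at 24 h was well below that at 12 h, and further below that at 2 weeks. The median member stood 0.69 log2 units higher at 12 h than at 24 h (range 0.53 to 2.97), and 1.13 units higher at 2 weeks than at 24 h (range 0.53 to 3.99). Over all 8371 features of the same abundance range the median differences were -0.07 and -0.09. On the linear scale the 24 h level of the median member was 58.9% of its 12 h level and 43.4% of its 2-week level, where the median feature of the range was at 107% and 110%. These differences chose the members and are a description with no test.

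**Figure D1:**
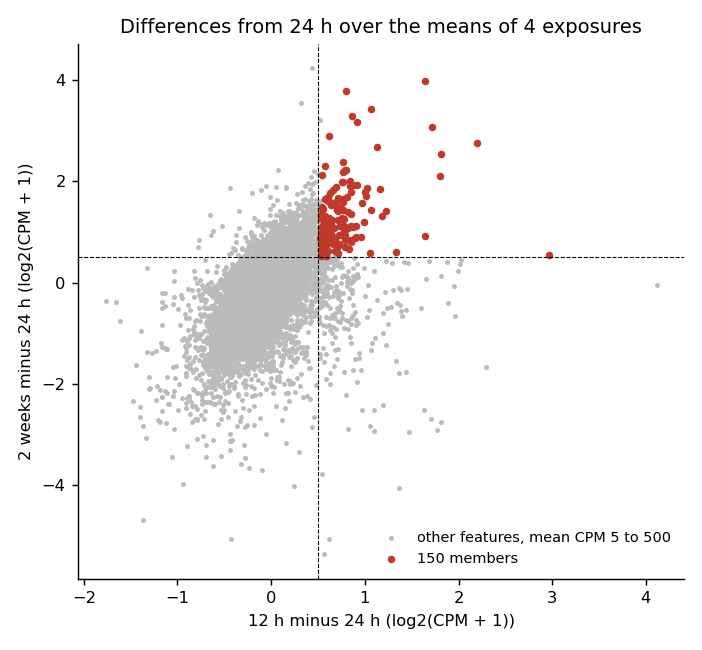
Each point is a feature with a mean level from 5 to 500 CPM, placed by its difference 12 h minus 24 h (horizontal) and 2 weeks minus 24 h (vertical), in log2(CPM + 1) units over the means of 4 exposures. The 150 members (red) lie right of and above the dashed lines at 0.5, most of them close to the line for 12 h and spread upward to 3.99 for 2 weeks.

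The threshold cut through a continuous run of values. The members ranked 149 and 150 had smaller differences of 0.526 and 0.525, and the features ranked 151 and 152, just outside, had 0.524 and 0.524. The last feature to meet the thresholds, ranked 176, had 0.5003. Members covered the abundance range much as all its features did. Their mean CPM had a median of 12.2 (quartiles 7.67 and 25.7), against 13.2 (7.70 and 29.5) over the range. There were 59 at a mean of 5 to 10 CPM, 74 at 10 to 50 CPM and 17 at 50 to 500 CPM, and the median smaller difference was 0.66, 0.67 and 0.70 in these classes. The most abundant member, ranked 30, averaged 403 CPM. Its median was 294 CPM at 12 h (range 126 to 982), 171 CPM at 24 h (range 92.3 to 396) and 622 CPM at 2 weeks (range 368 to 1352), so that its 24 h and 2-week fish overlapped only at the edge of their ranges.

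The members did not all return to the level they had at 12 h. The level at 2 weeks was above that at 12 h in 135 members and below it in 15. In 27 members it was at least 1 log2 unit above, with a median of 1.37, and in 48 members the levels at 12 h and 2 weeks were within 0.25 units of each other. Of the 8371 features of the abundance range, 4039 were higher at 2 weeks than at 12 h. Over that range the difference to 2 weeks was spread more widely (quartiles -0.57 to 0.28) than the difference to 12 h (-0.24 to 0.09). A rule that asks for both differences can thus itself favour features higher at 2 weeks, and these counts are given with no test. In 14 members the level at 24 h was at least 1 unit below both other times.

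Split by exposure, the members' low point at 24 h varied in depth. The rule averaged these same group means, so the choice itself fixed much of what follows, and it is given with no test. Within pH fish the median member was 1.01 log2 units higher at 12 h and 1.14 higher at 2 weeks than at 24 h. Within DO fish these medians were 0.62 and 1.11, within cross fish 0.48 and 0.82, and within control fish 0.81 and 1.70. Both medians were thus smallest in cross fish, and the difference to 2 weeks was largest in control fish. Members were lowest at 24 h in 140 cases in pH fish, 144 in DO fish, 125 in cross fish and 139 in control fish, where 2832, 1394, 2474 and 2224 of the 8371 features of the abundance range were. All 4 exposures were lowest at 24 h in 104 members, 3 in 40 and 2 in 6, and all 4 were lowest then in 325 features of the range. Both differences reached 0.5 within a single exposure for 119 members in pH fish, 85 in DO fish, 66 in cross fish and 103 in control fish. Of the 8371 features of the abundance range, 674, 233, 269 and 543 did so, in the same order.

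**Figure D2:**
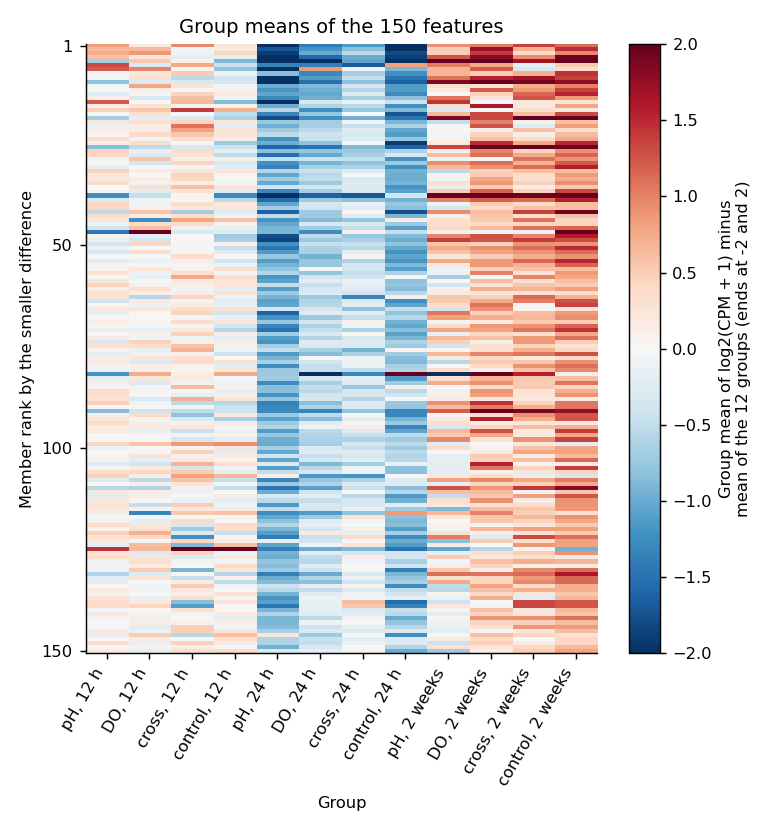
Rows are the 150 members in rank order and columns the 12 groups; colour gives the group mean of log2(CPM + 1) minus the mean over the 12 groups, cut at -2 and 2. The 4 columns of 24 h are blue in most rows, palest for cross, and the 2-week columns are darker red than the 12 h columns.

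The member with the largest smaller difference was TRINITY_DN54919_c3_g3, at 2.20 log2 units. At 12 h it had 9.73, 29.0, 35.3 and 5.85 CPM in pH fish, 8.30, 10.4, 7.01 and 14.9 CPM in DO fish, 9.79, 9.96, 63.8 and 12.97 CPM in cross fish, and 19.5, 10.9, 6.92 and 6.72 CPM in control fish. At 24 h it had 0.529, 1.02 and 2.91 CPM in pH fish, 1.35, 4.16 and 2.80 CPM in DO fish, 7.50, 4.53, 2.43 and 1.08 CPM in cross fish, and 4.29, 0.594, 0.854 and 0.809 CPM in control fish. At 2 weeks it had 9.79 and 28.4 CPM in pH fish, 8.43, 24.7, 18.7 and 27.9 CPM in DO fish, 16.98, 14.4, 48.6 and 24.1 CPM in cross fish, and 15.8, 29.5, 17.7 and 17.6 CPM in control fish. Every 24 h fish was below every 2-week fish, and the highest 24 h fish, a cross fish at 7.50 CPM, overlapped the lowest 12 h fish. Within 24 h the exposures overlapped broadly, and 1 control fish (Mys25) stood above the other controls.

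TRINITY_DN46767_c1_g2 followed with a smaller difference of 1.81. At 12 h it had 14.8, 13.1, 28.7 and 24.3 CPM in pH fish, 11.3, 21.04, 19.3 and 27.8 CPM in DO fish, 8.90, 19.003, 16.4 and 5.42 CPM in cross fish, and 36.1, 25.5, 3.82 and 8.74 CPM in control fish. At 24 h it had 1.39, 3.47 and 4.65 CPM in pH fish, 3.19, 4.98 and 5.92 CPM in DO fish, 9.12, 11.9, 3.73 and 3.31 CPM in cross fish, and 2.87, 1.58, 1.49 and 2.53 CPM in control fish. At 2 weeks it had 8.13 and 34.6 CPM in pH fish, 22.1, 42.9, 51.6 and 57.2 CPM in DO fish, 16.6, 20.1, 18.3 and 24.6 CPM in cross fish, and 19.7, 71.0, 36.3 and 28.2 CPM in control fish. The highest 24 h fish, a cross fish at 11.9 CPM, lay above the lowest 2-week fish, at 8.13 CPM. Of the 12 h fish it lay above the DO fish at 11.3 CPM, the cross fish at 8.90 and 5.42 CPM and the control fish at 3.82 and 8.74 CPM. All 4 cross fish at 24 h lay above all 4 controls of that time, a pair of them by a wide margin, and at 2 weeks the cross fish sat in the lower part of the range.

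**Figure D3:**
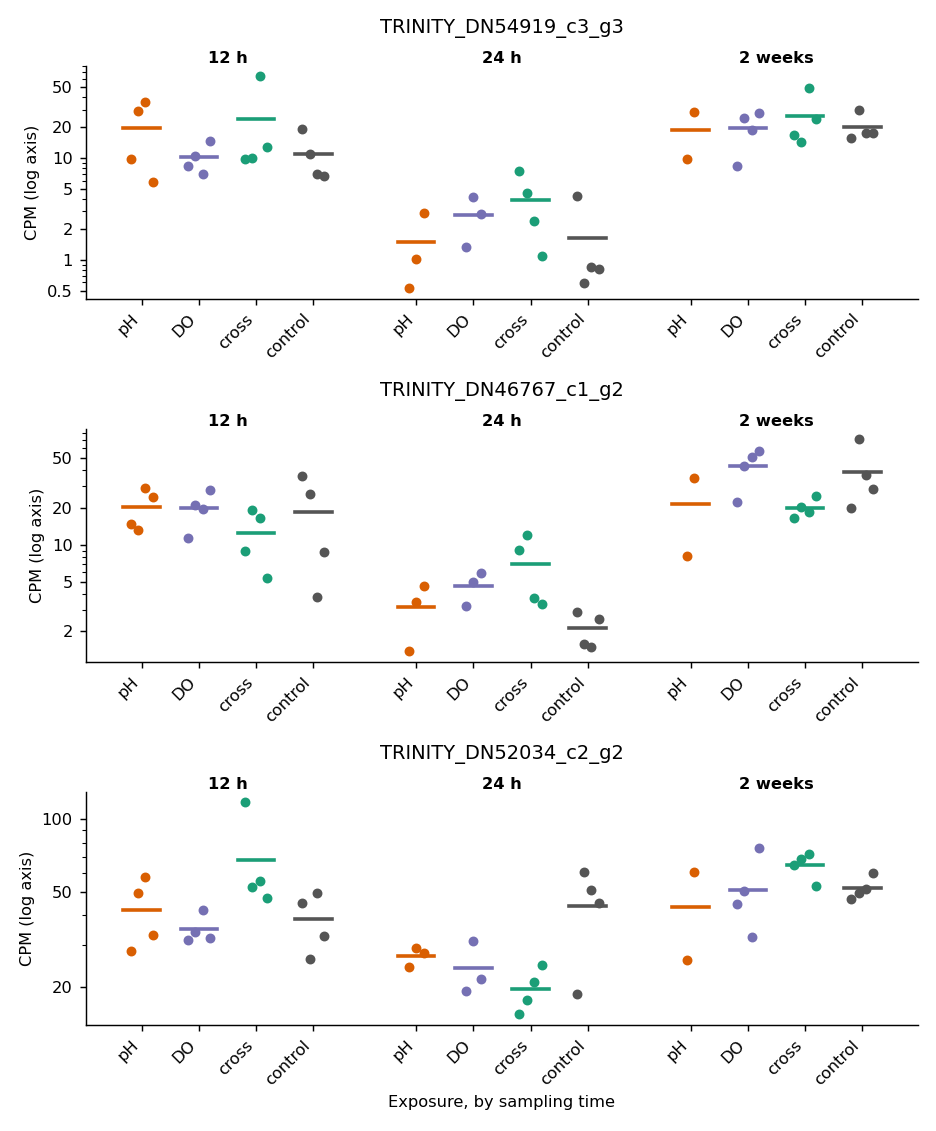
Level in CPM (log axis) of 3 members in every fish, by exposure and sampling time; points are fish and bars the arithmetic means of the 2 to 4 fish of a group. TRINITY_DN54919_c3_g3 and TRINITY_DN46767_c1_g2 have their lowest means at 24 h in all exposures, although single fish of 24 h overlap those of other times. TRINITY_DN52034_c2_g2 is low at 24 h in pH, DO and cross fish and in 1 of 4 control fish.

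Averaged over the 150 members, each fish had 1 value, the mean of log2(CPM + 1). At 12 h it ran from 3.68 to 4.23 in pH fish, 3.73 to 4.08 in DO fish, 3.01 to 4.48 in cross fish and 2.95 to 4.41 in control fish. At 24 h it ran from 2.24 to 3.09 in pH fish, 2.80 to 3.60 in DO fish, 3.12 to 3.78 in cross fish and 2.76 to 3.10 in control fish. At 2 weeks it ran from 3.55 to 4.56 in pH fish, 4.05 to 4.77 in DO fish, 4.28 to 4.59 in cross fish and 4.48 to 4.87 in control fish. The times overlapped. At 12 h cross fish Mys7067 (3.01) and control fish Mys15 (2.95) lay below the 24 h median of 3.10. Within the 24 h range, which reached 3.78, also lay 12 h fish of other groups. These were control fish Mys16 (3.52), pH fish Mys17 (3.74), Mys18 (3.77) and Mys20 (3.68), and DO fish Mys21 (3.78) and Mys22 (3.73). The median 12 h fish was at 3.83. At 2 weeks pH fish Mys53 (3.55) lay within the 24 h range. In share of all counts, the 150 members together took 0.435% at 12 h (median of 16 fish), 0.249% at 24 h (14 fish) and 0.643% at 2 weeks (14 fish).

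**Figure D4:**
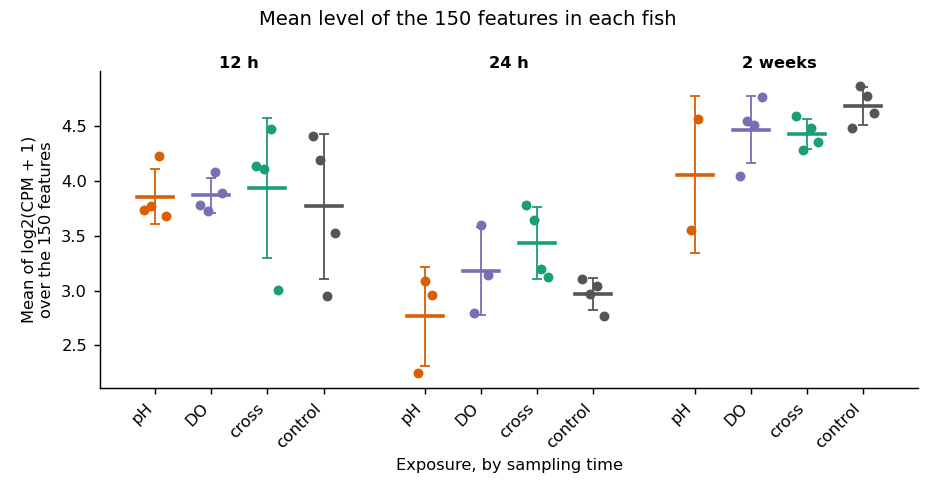
Mean of log2(CPM + 1) over the 150 members in each fish (points), with group means (thick bars) and SD (thin bars) of 2 to 4 fish, by exposure and time. The 24 h fish lie between 2.24 and 3.78 and the 2-week fish between 3.55 and 4.87. The 12 h fish lie between 2.95 and 4.48, and fish of all 4 exposures at 12 h fall within the 24 h range. Of these, 2 at 2.95 and 3.01 lie below the 24 h median of 3.10.

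Counted member by member, a 24 h fish had between 88 and 146 of the 150 members (median 136) below the median of both other times. The 3 lowest counts were 88 in cross fish Mys7068, 96 in DO fish Mys35 and 102 in cross fish Mys7069. All other 24 h fish had at least 130. Among the features of the abundance range, a 24 h fish had 9.2% to 61.4% below both medians. At 12 h control fish Mys15 had 100 members (66.7%) and cross fish Mys7067 had 84 (56.0%) below the 24 h median. The median 12 h fish had 13.5. Of the features of the abundance range, 79.3% in Mys15 and 78.7% in Mys7067 were below it, so low levels in these 2 fish were not confined to members. The rule chose members for a low 24 h median, so their shares and those of the range are not like measures. With TMM scaling, which corrects library totals, the lowest 12 h member means were still 3.23 in control fish (group mean 3.77) and 3.34 in cross fish (group mean 3.87). No member separated all 24 h fish from all 12 h fish (background 0.0239% of the abundance range), and 15 separated all 24 h fish from all 2-week fish (background 0.275%). The rule used both contrasts, so nothing is read from these counts.

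Over all groups together, the level of the members within a group was lower in libraries where few features took more of the counts. Across the 44 fish, deviations of the member mean from its group mean had a Pearson correlation of -0.629 (Spearman -0.593) with deviations in the share of the 100 most abundant features, and -0.552 without the 2 fish farthest from the median share. Both values of a fish come from the same library and its total. Among the 14 fish of 24 h the Pearson correlation was -0.441, the Spearman correlation -0.209, and the Pearson value without the 2 farthest fish -0.004, so that at 24 h the relation rests on those 2 fish. The same 3 values were -0.555, -0.562 and -0.567 among the 16 fish of 12 h, and -0.853, -0.815 and -0.721 among the 14 fish of 2 weeks. With TMM scaling, which corrects library totals for such differences in makeup, the Pearson correlation was -0.057 and the Spearman correlation -0.021. The low point at 24 h was as deep on that scale: the median member was 0.80 units higher at 12 h and 1.21 higher at 2 weeks than at 24 h, and the median feature of the abundance range stood at 0.05 and -0.01. By library total, the member mean also went within groups with the mean of the other features of the abundance range (Pearson 0.656, Spearman 0.607). Variation of this kind was thus not particular to the members.

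The members differed from other features of like abundance in how they varied. Their median SD within groups was 0.61 log2 units, against 0.45 over the abundance range. Pairs of members had a median correlation of within-group deviations over the 44 fish of 0.376, against 0.300 for pairs of features of the abundance range, and with TMM scaling 0.229 against 0.051. Members therefore tended to go up and down together in single fish also within a group, on counts that share the library. The rule favours features whose group means vary, so these values are given without a test.

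Assembly identifiers group features into components, sets of contigs joined through shared sequence, and the members came from 144 components. In 6 components there were 2 members each, always in the same numbered cluster, with correlations of within-group deviations from 0.868 to 0.962 over the 44 fish. Such pairs can be copies or fragments of 1 gene whose reads were split between them, so they are uncertain as separate members. Their components held 98 other features of the abundance range, of which 34 were lowest at 24 h (34.7%, against 26.3% of the whole range) and 1 had both differences of at least 0.5. Of the deposited values of members 51.9% were not whole numbers, against 59.03% in the abundance range, as estimates of reads shared between features are.

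To read the low point in fish that had no part in the choice, the rule was applied to 3 exposures at a time and the features it chose were tested in the fourth. The test compared 24 h with the mean of 12 h and 2 weeks on the log2 scale in 1 edgeR fit of all 44 fish and 34070 features, with Benjamini-Hochberg adjustment over all of them and a threshold of 0.05. In pH fish 29 of the 146 features chosen without them fell at 24 h past the threshold (19.9%), where 1.19% of all features tested and 2.59% of those in the abundance range did so. In DO fish 47 of 150 fell (31.3%, background 0.974% and 2.02%), in cross fish 20 of 150 (13.3%, background 0.972% and 2.18%), and in control fish 71 of 150 (47.3%, background 4.65% and 7.45%). Fell here means a level at 24 h below the mean of 12 h and 2 weeks, which a feature higher only at 2 weeks also meets. The median log2 difference of 24 h from that mean was -0.80 in pH fish, -1.01 in DO fish, -0.46 in cross fish and -0.99 in control fish. In each exposure the share that fell was thus several times the background, and it was lowest in cross fish; the differences between exposures are described below.

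The same features also show which side of the low point held. Chosen without the fish concerned, 67.8% of features were lowest at 24 h in pH fish (34.1% of the abundance range), 83.3% in DO fish (16.5%), 48.0% in cross fish (29.6%) and 66.7% in control fish (26.9%). In cross fish the median feature was no lower at 24 h than at 12 h, with a difference 12 h minus 24 h of -0.03, but was 0.74 units higher at 2 weeks than at 24 h. The median differences to 12 h and to 2 weeks were 0.40 and 0.93 in DO fish and 0.37 and 1.45 in control fish. The 12 h side was thus the smaller there too. In pH fish it was the larger, at 0.74 against 0.52. Both differences reached 0.5 in 47.9% of features in pH fish (8.08% of the range), 41.3% in DO fish (2.75%), 22.7% in cross fish (3.11%) and 38.0% in control fish (6.64%). Of the 150 members, 95 were also among the 146 features chosen without pH fish, 116 among the 150 without DO fish, 96 among the 150 without cross fish and 101 among the 150 without control fish. Single fish decided many of the calls, over all features as well as the chosen ones. The count that fell ran, with single fish left out, from 4 (without Mys30) to 28 in pH fish, from 9 (without Mys35) to 49 in DO fish, from 0 (without Mys7068) to 29 in cross fish, and from 55 to 78 in control fish. Over all features, those called lower were 18 of 34162 without Mys30, 56 of 31894 without Mys35 and 2 of 31967 without Mys7068. The median difference of the chosen features in these fits was -0.70, -0.95 and -0.49.

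**Figure D5:**
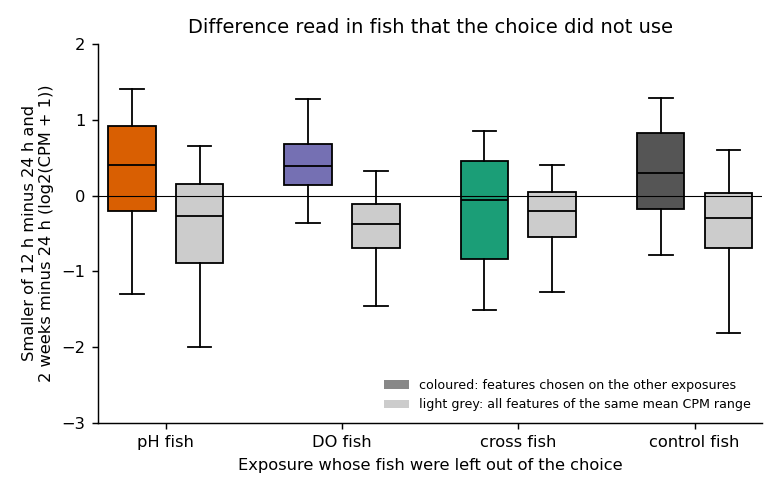
Smaller of the differences 12 h minus 24 h and 2 weeks minus 24 h (log2(CPM + 1)) in the fish of 1 exposure, for features chosen on the other 3 exposures (coloured) and for all features of the same abundance range (light grey). Boxes span the quartiles with the median as a line, and whiskers the 5th to 95th percentile of features; the medians of the chosen features are 0.40, 0.38, -0.06 and 0.30 in pH, DO, cross and control fish, against -0.27, -0.37, -0.20 and -0.30 in the range.

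Whether the exposures changed the level of the members at a given time was tested against the controls of that time, with edgeR fits of all fish of the time, TMM scaling and adjustment over all features tested. The 3 comparisons of a time share their control fish. The rule averaged the exposures and so did not use their contrasts, but deviations of single fish entered both, more so in groups of 2 or 3 fish, and their part was not tested.

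At 12 h no member passed the threshold in any exposure. In pH fish 0 members were called (background 0%) and 2 of 150 were at an unadjusted p under 0.05, where 2.13% of all features tested and 1.84% of the abundance range were. In DO fish 0 were called (background 0%) and 6 were at an unadjusted p under 0.05 (background 6.62% and 8.18%). In cross fish 0 were called (background 0%) and 5 were at an unadjusted p under 0.05 (background 4.98% and 5.8%). None of these shares stands above its background. For pH 57.3% of members had a positive fold change (59.9% of the abundance range), with a median of 0.09 log2 units (0.06 in the range and -0.01 over all features). For cross 63.3% did (61.2% of the range), with a median of 0.16 (0.08 in the range and 0.03 over all features). The pH and cross shares are thus close to those of other features of like abundance. For DO 80.7% of members had a positive fold change (52.7% of the range), with a median of 0.27 (0.02 in the range and 0.00 over all features). The medians depended on control fish Mys15, the lowest of its group: without it they were -0.10 for pH, 0.10 for DO and 0.02 for cross, and without cross fish Mys7066 the median for cross was -0.10. Without control fish Mys13 the members under the unadjusted threshold numbered 9 for pH, 20 for DO and 16 for cross (6.0%, 13.3% and 10.7%, against 3.01%, 9.02% and 5.67% of all features in the same fits). Without cross fish Mys7067 the count for cross was 24 (against 9.07% of all features).

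At 24 h the members were on the whole higher in cross fish than in control fish, although none passed the threshold. Of 149 members tested, 122 had a positive fold change in cross fish (81.9%, against 40.1% of the abundance range), with a median of 0.62 log2 units where the median over all features was 0.00 and over the abundance range -0.12. In edgeR 0 members were called (background 0%, smallest adjusted p 0.199). At an unadjusted p under 0.05 there were 43 (28.9%, background 16% of all features and 18.7% of the abundance range), of which 37 were higher (24.8%, background 5.46%) and 6 lower (4.03%, background 13.3%). By library total all 4 cross fish had a higher member mean than all 4 controls, while with TMM scaling the ranges were 3.02 to 3.57 in cross fish and 2.65 to 3.30 in control fish and overlapped. The outcome of the test depended on control fish Mys25, whose library stood apart as given above. Without it 25 members were called, 22 of them higher and 3 lower. Of the 26005 features in that fit 1019 were called (3.92%), 296 of them higher and 723 lower. At an unadjusted p under 0.05 there were 81 members (54.4%, against 24.3% of all features). Without control fish Mys27 there were 27 of the latter kind (18.1%, against 12.3%).

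In pH and DO fish at 24 h no member was called either (background 0% in both). In pH fish 15 members were at an unadjusted p under 0.05 (background 8.34% and 9.11%), 9 of them higher (6.04%, background 4.84% of the range) and 6 lower (4.03%, background 4.27%). The median fold change in pH fish was 0.06 log2 units, against -0.01 in the range and -0.10 over all features. In DO fish 15 were (background 6.48% and 7.47%), 9 of them higher (6.04%, background 1.96%) and 6 lower (4.03%, background 5.51%). Positive fold changes made up 71.1% of members in DO fish, against 41.6% of the range, with a median of 0.27 where the range had -0.08. The pH count was thus close to its background in both directions, and the DO count was above it among higher members. Without control fish Mys25 the counts were 38 in pH fish (25.5%, against 14% of all features in that fit) and 51 in DO fish (34.2%, against 14.5%), and without other single fish they ran down to 9 in pH fish (without Mys32, 6.0%, against 4.06% of all features) and 7 in DO fish (without Mys36 or control fish Mys27, against 4.11% and 4.59%).

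At 2 weeks no member passed the threshold in any exposure. In cross fish 0 members were called (background 0%), 100 of 150 had a negative fold change where 52.9% of the abundance range did, with a median of -0.16 against -0.02 in the range, and the 10 at an unadjusted p under 0.05 (background 4.41% and 4.71%) were all lower (6.67%, background 2.75%). In DO fish 0 were called (background 0.00376%) and 22 were at an unadjusted p under 0.05 (background 7.98% and 9.02%), 16 of them lower (10.7%, background 3.46%), although 56.0% had a positive fold change (55.6% of the range) and the median was 0.08 (0.04 in the range). In pH fish, with 2 libraries, 0 were called (background 0.124%) and 18 were at an unadjusted p under 0.05 (background 12.4% and 18.1%), with a median of -0.10 (0.03 in the range). Leaving out Mys54 or Mys53 leaves 1 pH fish, so only the median is given: -0.25 without Mys54 and -0.02 without Mys53, against -0.20 and -0.06 over all features. The count at an unadjusted p under 0.05 ran, with single control fish left out, from 11 (without Mys51) to 20 (without Mys50) for pH, where 10.7% and 11.7% of all features were. For DO it ran from 13 (without control fish Mys52) to 38 (without Mys50), where 5.24% and 7.66% of all features were, and for cross from 5 (without Mys50) to 25 (without Mys49), where 2.65% and 4.5% were.

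The depth of the low point itself was compared between exposed and control fish in the 44-fish fit, as the log2 level at 24 h minus the mean of 12 h and 2 weeks, exposed minus control, so that a positive value is a shallower low point. In cross fish it was shallower on the whole, with 112 of 150 positive values and a median of 0.53, against 0.02 over all features and -0.18 over the abundance range. There were 38 members at an unadjusted p under 0.05 (25.3%, background 16.9% and 23.4%), of which 32 were shallower (21.3%, background 5.16%) and 6 deeper (4.0%, background 18.3%), and edgeR called 1 (0.667%, background 0.308% of all features and 0.669% of the abundance range). Without control fish Mys25 it called 24, of which 20 were shallower and 4 deeper. In that fit 5.98% of all features were called, 693 with positive and 1335 with negative values. Without single other fish it called between 0 and 10 members. The 10 came without cross fish Mys7066, 7 of them shallower and 3 deeper, where 1.86% of all features were called. Without cross fish Mys7071 there were 8, 5 of them shallower and 3 deeper, where 3.33% of all features were called. In pH fish 0 were called (background 0%) and 17 were at an unadjusted p under 0.05 (background 9.23% and 13.4%). The median was 0.01, against -0.07 over the abundance range, and 51.3% of values were positive (44.7% of the range). In DO fish 0 were called (background 0%) and 10 were at an unadjusted p under 0.05 (background 6.61% and 7.28%). The median was 0.11, against -0.14 over the range, and 60.7% of values were positive (37.2% of the range), a shift in the direction seen in cross fish. Without control fish Mys25 the last counts were 34 in pH fish and 31 in DO fish (22.7% and 20.7%, against 11.6% of all features in both fits).

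The 1 called member, a share no larger than that of other features of its abundance, was TRINITY_DN52034_c2_g2 (rank 76). It went the other way from most and had a deeper low point in cross fish. At 12 h it had 118, 52.5, 55.2 and 46.9 CPM in cross fish, against 44.8, 26.4, 49.4 and 32.7 CPM in control fish. At 24 h it had 15.4, 17.8, 21.01 and 24.7 CPM in cross fish, against 18.8, 60.2, 50.9 and 44.8 CPM in control fish. At 2 weeks it had 64.4, 68.7, 71.8 and 52.7 CPM in cross fish, against 46.8, 49.6, 51.5 and 59.9 CPM in control fish. Of the control fish at 24 h only Mys25 was as low as the cross fish of that time, and the other 3 lay above all of them. The difference in depth was -1.65 log2 units (SE 0.36, adjusted p = 0.0423 in edgeR's quasi-likelihood test, n = 4 fish in each of the 6 groups). With 1 fish left out at a time the value ran from -1.85 to -1.43. The adjusted p stayed below 0.05 in 7 of 24 such fits and was above it in the other 17, at most 0.168.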

How the data were processed

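RNA of white muscle was sequenced from 44 juvenile fish, and the deposited tables, 1 for each sampling time, give expected counts per feature, the kind of estimate RSEM makes, with no normalization. Bowtie, edgeR, RSEM 1.3.0, Trimmomatic 0.36 and FastQC 0.11.5 are named, without their roles, per the submitters' processing notes. Trinity identifiers show a de novo assembly; its settings are not stated. Per the labels' protocols the libraries were stranded and prepared in sets in randomized order; the set of each fish is not given. Of the deposited expected counts 9.60% were not whole. The chi-square per feature in 61 pairs of fish of 1 group ran from 8.61 to 67.1, above sampling noise, so no library was a copy.

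CPM and log2(CPM + 1) were computed from column totals with Python 3.11.15, pandas 2.3.3 and numpy 2.4.6. Expected counts were rounded for tests in R 4.3.3 with edgeR 4.0.16 (quasi-likelihood test, robust, two-sided, TMM scaling, low counts removed by filterByExpr at 10 counts and a total of 15), adjusted over all features tested by Benjamini-Hochberg. At 24 h 1 member did not pass this filter, which was applied to the fish of that time. The scripts were tested on simulated data. Alternatives were RLE size factors, no filter, a minimum count of 30, voom of limma 3.58.1 with quality weights (within times), DESeq2 1.42.0, other pseudocounts, limits and averages for the choice, and each fish left out. The members, lists and tests were chosen with earlier results of these data known. Named are the 2 members with the largest smaller difference and up to 2 per direction past the threshold in a comparison of exposures. The list of cell type markers could not be applied, since no feature has a gene name.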

Additional observations from a re-analysis of the deposited data

Results flagged for a closer look

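In 36 groups of 4 fish, taken over 4 measures (the member mean and 3 named members), 5 had a highest fish far from the others relative to the range of the group. For normally distributed values chance alone gives about 1 in 20. The 3 named members were taken in CPM, not on the log scale, so that rate need not hold for them and no excess is read from the count. At 12 h pH fish Mys19 had a member mean of 4.23 log2 units, with the other 3 pH fish between 3.68 and 3.77. TRINITY_DN54919_c3_g3 had 63.8 CPM in cross fish Mys7066 at 12 h, with the others at or below 12.97 CPM. The same feature had 4.29 CPM in control fish Mys25 at 24 h, with the others at or below 0.854 CPM, and 29.5 CPM in control fish Mys50 at 2 weeks, with the others at or below 17.7 CPM. TRINITY_DN52034_c2_g2 had 118 CPM in cross fish Mys7064 at 12 h, with the others at or below 55.2 CPM. The depth of the low point of that feature differed between cross and control fish by -1.65 log2 units in the edgeR fit, the 1 call among 150 members (0.667%, against 0.669% of features of like abundance).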

How the results depend on the processing

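Many members lie near the threshold of the rule. The lowest level that depth resolved, at most 0.303 CPM, compares with member means of at least 5.01 CPM, which the rule asked for. At 24 h the margin was smaller for some: the lowest member averaged 0.46 log2(CPM + 1) units, where the median member had 2.75. TRINITY_DN54919_c3_g3 had 8 counts in pH fish Mys30 of 24 h. With TMM or RLE scaling, a pseudocount of 0.25 CPM, or totals without the 100 most abundant features (chosen after seeing the data), all 150 members kept both differences at 0.5 or more, and 138 to 144 were among the 150 chosen again. With a pseudocount of 5 CPM 58 did and 58 were chosen again, since it shrinks the differences of low features. With limits of 10 to 250 CPM 89 were chosen again, which are all the members in that range, and without the cross fish 96. Without the 3 fish with the lowest member means at 12 h and 2 weeks (chosen after seeing the data), 149 kept both differences and the median smaller difference was 0.83. With 1 fish left out at a time, 116 to 150 members kept both differences, 116 to 149 were chosen again and the median smaller difference was 0.60 to 0.74, the lowest values without pH fish Mys30. TRINITY_DN54919_c3_g3 had a smaller difference of 1.34 with a pseudocount of 5 CPM.

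Counts of called members, 0 in edgeR, were under other settings as follows, each with its share of the members and, after it, that of the abundance range; the cause was not tested. Without a filter they were 1 for DO at 12 h (0.667%, 0.645%). At 24 h they were 1 for pH (0.667%, 0.717%), 1 for DO (0.667%, 0.681%) and 13 for cross (8.67%, 4.64%), and at 2 weeks 4 for pH (2.67%, 3.62%), 6 for DO (4.0%, 0.788%) and 1 for cross (0.667%, 0.215%). DESeq2 called 2 for pH (1.34%, 0.131%) and 13 for cross (8.72%, 3.3%) at 24 h, and 4 for pH (2.67%, 6.84%) and 1 for DO (0.667%, 0.239%) at 2 weeks. Limma voom called 22 for cross at 24 h (14.8%, 7.31%). With 1 fish left out the counts ran from 0 to 25 for cross at 24 h and were 0 in the other comparisons at 1 time, for pH at 2 weeks as long as both pH fish were kept. The 25 came without control fish Mys25, where 3.92% of all features were called. For the depth of the low point, where edgeR called 1 for cross and 0 for pH, no filter gave 4 for cross (2.67%, 2.86%) and 3 for pH (2.0%, 0.442%). DESeq2 gave 13 (8.67%, 5.42%) and 2 (1.33%, 1.41%), and a minimum count of 30 gave 3 for cross (2.0%, 1.29%). With 1 fish left out the counts ran from 0 to 24 for cross, and were 0 for pH as long as both pH fish of 2 weeks were kept. The 24 came without control fish Mys25, where 5.98% of all features were called. Features chosen without pH fish that fell in them were 53 in DESeq2 (36.3%, 6.44%). With 1 fish left out such counts ran from 4 to 28 in pH fish, 9 to 49 in DO fish, 0 to 29 in cross fish and 55 to 78 in control fish. The lowest counts in pH, DO and cross fish came from fits in which few of all features were called lower, as given above. No paired analysis was possible because fish numbers are not shared between groups.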
